A study of Mus musculus with 4 samples.

Results

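Basophil and eosinophil genes were followed in MDSCs (myeloid-derived suppressor cells, an immature myeloid population expanded by tumors) that were cultured with or without EGCG (epigallocatechin-3-gallate), a polyphenol from tea leaves. The set has 10 genes out of the 53465 genes listed in the count table. The basophil and mast cell genes are Mcpt8, Prss34, Cpa3, Fcer1a, Ms4a2 and Gata2 (6 genes), and the eosinophil genes are Prg2, Epx, Il5ra and Siglecf (4 genes). They were selected on measured values of the same EGCG against control contrast, with the reason that these markers were lower together, so their own fold changes are given as a description, and no test is used to support them. The values went against that reason in part. The 4 eosinophil genes were lower in both EGCG libraries than in both control libraries, whereas the 6 basophil and mast cell genes centred near 0 (median log2 fold change -0.0018), and Fcer1a was higher in both EGCG libraries.

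Both groups came from BALB/c mice that had been injected with 4T1 cells, a transplantable mammary carcinoma line of that strain. MDSCs were sorted from the spleens by magnetic selection for Gr-1, which covers the surface proteins Ly-6G and Ly-6C, and were kept for 6 h in control medium (control group, 2 libraries) or in medium with 5 μg/mL EGCG (EGCG treatment group, 2 libraries). The labels give day 21 after injection for the sacrifice, while the study's methods name an earlier time for the sort. Neither source tells if replicate libraries represent separate mice or separate cultures, so p-values measure only the spread between these samples, which may be technical. Total counts per library were between 17767318 and 18390385, so depth differed little between the groups.

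Basophils, mast cells and eosinophils are granule-bearing cells of type 2 immunity that defend against parasites and take part in allergy. Basophils and mast cells bind IgE through a high-affinity receptor and release histamine, proteases and cytokines once it is crosslinked, while eosinophils store toxic cationic proteins in their granules and depend on IL-5. Basophils and eosinophils circulate in the blood and pass through the spleen, whereas most mast cells live in tissue, and Gr-1 is not a defining marker of any of them. The measurements came from bulk RNA, in which fewer cells of a type and less RNA per cell cannot be told apart.

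All 10 genes were measured and passed the filter on low counts, and 8 of them had a mean count above the median of the 14682 tested genes. The promoters of 4 members are shown to set genes that were lower with EGCG (Epx and Siglecf) beside genes that were not (Mcpt8 and Prss34). They run from 250 bases before to 50 bases after the RefSeq start on GRCm38.p6, read 5′ to 3′ on the strand of the gene, and capitals mark GATAA, the core letters that GATA factors such as Gata2 recognise, in either direction. The Epx promoter lies at chr11:87875487-87875786 on the minus strand, that of Siglecf at chr7:43351091-43351390 on the plus strand, that of Mcpt8 at chr14:56085148-56085447 on the minus strand and that of Prss34 at chr17:25298144-25298443 on the plus strand.
Epx: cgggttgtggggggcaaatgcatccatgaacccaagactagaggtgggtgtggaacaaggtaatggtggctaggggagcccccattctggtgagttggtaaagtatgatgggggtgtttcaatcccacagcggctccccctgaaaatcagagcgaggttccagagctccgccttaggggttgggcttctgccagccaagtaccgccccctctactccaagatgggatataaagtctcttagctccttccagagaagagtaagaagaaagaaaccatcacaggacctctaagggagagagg
Siglecf: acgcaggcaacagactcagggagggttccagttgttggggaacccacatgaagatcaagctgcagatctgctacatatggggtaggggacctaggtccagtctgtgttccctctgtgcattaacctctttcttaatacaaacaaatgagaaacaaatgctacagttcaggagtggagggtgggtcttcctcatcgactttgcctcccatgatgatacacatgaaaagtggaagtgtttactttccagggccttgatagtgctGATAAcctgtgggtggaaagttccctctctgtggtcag
Mcpt8: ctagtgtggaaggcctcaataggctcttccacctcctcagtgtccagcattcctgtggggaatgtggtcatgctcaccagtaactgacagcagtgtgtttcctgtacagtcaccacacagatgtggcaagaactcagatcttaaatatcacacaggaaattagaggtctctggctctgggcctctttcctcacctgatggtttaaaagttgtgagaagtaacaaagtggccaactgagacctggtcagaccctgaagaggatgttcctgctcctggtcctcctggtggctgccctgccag
Prss34: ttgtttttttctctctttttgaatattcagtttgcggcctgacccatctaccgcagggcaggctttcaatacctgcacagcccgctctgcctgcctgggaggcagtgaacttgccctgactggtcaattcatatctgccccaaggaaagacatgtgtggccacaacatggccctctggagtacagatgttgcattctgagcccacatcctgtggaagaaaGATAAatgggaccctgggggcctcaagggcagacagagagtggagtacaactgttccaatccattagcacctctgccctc
Siglecf and Prss34 each have 1 GATAA in this window, at position +12 and position -30 from the start, and Epx and Mcpt8 have none. Among the 9 members with an entry in the promoter table, 6 held GATAA, and 25.4% of all 32851 promoters of this length held it on either strand. Members are counted here as genes and the background as promoters. The 9 genes have 10 promoters, since Gata2 has more than 1. By promoter, 6 of 10 held GATAA, and for the other motifs below the number is also the same by promoter. The members with GATAA were Prss34, Cpa3, Fcer1a, Ms4a2, Il5ra and Siglecf, and those without it were Mcpt8, Gata2 and Epx. A match is a description of the letters in this window, and its relation to the expression values was not tested. The letters TGTGGT, a core bound by RUNX factors, were in 4 of the 9 and in 16.8% of all promoters, and the gapped C/EBP letters TTGCNNAA were in 1 of the 9 and in 10.8%. The letters TTCNNNGAA, bound by STAT factors, were in 0 of the 9 and in 8.30%, which says only that these letters are not in this window. The motifs were searched on both strands and do not contain each other.

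The eosinophil genes are described first, since all 4 were lower in both EGCG libraries. Prg2 encodes major basic protein, the main protein of the eosinophil granule core, and was the most abundant member. It was measured at 865 and 747 CPM (counts per 1000000, scaled by TMM) in control replicates 1 and 2 and at 738 and 607 CPM in EGCG replicates 1 and 2. The groups did not overlap, but EGCG replicate 1 lay only just under control replicate 2, and the libraries within a group also stood apart. The log2 fold change of Prg2 was -0.26 ± 0.10 (SE), and the log2 difference of replicate 2 from replicate 1 was -0.21 within the control group and -0.28 within the EGCG treatment group.

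Epx encodes eosinophil peroxidase, the granule enzyme that makes hypobromous acid. Its level was 149.6 and 124 CPM in the controls and 112 and 108 CPM with EGCG. Both EGCG libraries were close together and below both control libraries, while control replicate 1 stood above control replicate 2. The log2 fold change was -0.31 ± 0.09 (SE), the furthest below 0 of the 10 members, and the mean was 19.5% lower with EGCG (110.1 ± 2.72 against 137 ± 18.1 CPM, SD, n = 2).

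Siglecf encodes a sialic acid-binding inhibitory receptor that marks mouse eosinophils and, in the lung, alveolar macrophages. Its level was 32.1 and 30.6 CPM in the controls and 29.1 and 26.3 CPM with EGCG. The groups did not overlap, with a small step between them, and the log2 fold change was -0.18 ± 0.10 (SE).

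Il5ra encodes the IL-5 receptor alpha chain, which gives eosinophils their response to IL-5. It was the least abundant member, at 5.26 and 5.54 CPM in the controls and 5.13 and 4.20 CPM with EGCG. EGCG replicate 1 lay close to both controls and EGCG replicate 2 was lower. These values rest on 96, 99, 93 and 75 counts, and the exact Poisson 95% intervals of the 4 counts overlapped (80.5 to 120.5 counts in control replicate 2 against 59.0 to 94.0 counts in EGCG replicate 2), so a difference was not detectable beyond counting error at this depth. The log2 fold change was -0.21 ± 0.20 (SE).

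**Figure D1:**
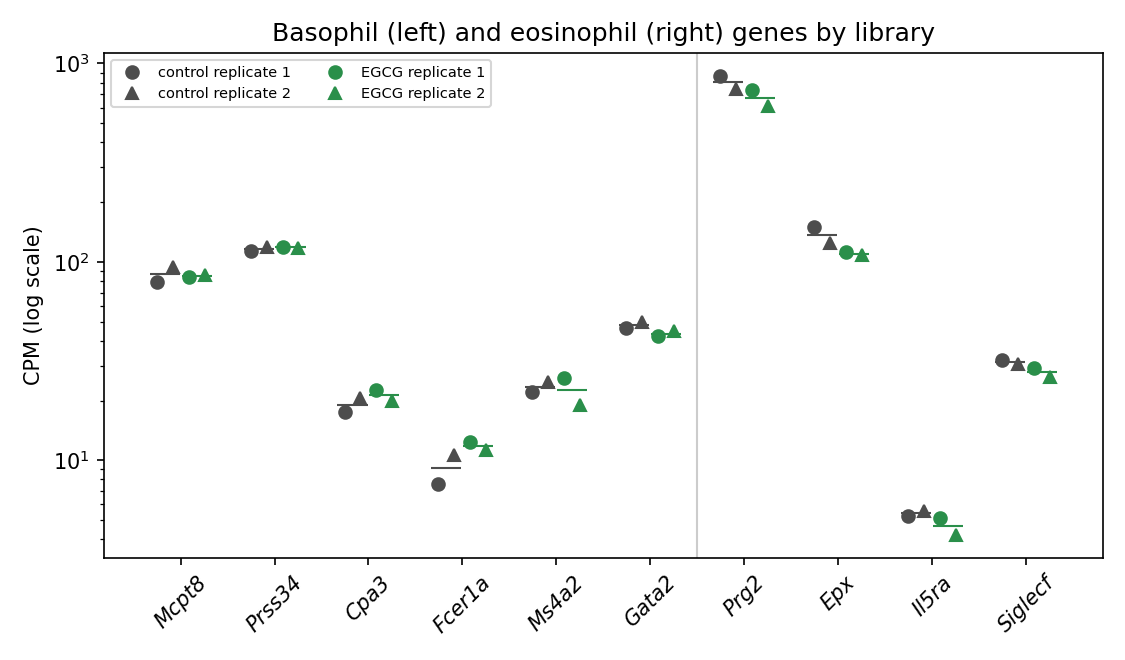
Level of each member in each library, in TMM-scaled CPM on a log scale; circles are replicate 1, triangles replicate 2, gray the control group, green the EGCG treatment group, and short lines are group means. The green points of Gata2, Prg2, Epx, Il5ra and Siglecf lie below the gray ones, those of Fcer1a lie above them (12.4 and 11.2 against 7.61 and 10.6 CPM), and those of Mcpt8, Prss34, Cpa3 and Ms4a2 overlap with them.

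The 4 eosinophil members summed to 1052 and 907 CPM in the controls and to 884 and 746 CPM with EGCG. The EGCG mean was 0.832 times the control mean, and without Prg2, which made up most of that sum, the other 3 gave 187 and 160 CPM against 146 and 139 CPM, a ratio of 0.821. The proportions of Prg2, Epx and Siglecf to each other also differed between libraries. Epx was 0.173 and 0.166 of Prg2 in the controls and 0.152 and 0.178 with EGCG, and Siglecf was 0.0371, 0.0410, 0.0395 and 0.0432 of Prg2 in the same order. Within the control group the log2 difference of replicate 2 from replicate 1 was -0.21 for Prg2, -0.27 for Epx and -0.07 for Siglecf. Within the EGCG treatment group it was -0.28 for Prg2, -0.05 for Epx and -0.15 for Siglecf.

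The basophil genes gave another picture. Mcpt8 encodes a granzyme-like protease that in mice is a defining product of basophils. It was measured at 79.3 and 93.8 CPM in the controls and at 83.8 and 85.9 CPM with EGCG. Both EGCG values lay between the 2 control values, and the log2 fold change was -0.03 ± 0.09 (SE).

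Prss34 encodes mast cell protease 11, a tryptase of basophils. Its level was 114 and 119 CPM in the controls and 119 and 118 CPM with EGCG, so that all 4 libraries were almost equal. The log2 fold change was 0.02 ± 0.07 (SE), and the means were 116 ± 3.23 CPM in the control group and 118 ± 0.668 CPM in the EGCG treatment group (SD, n = 2).

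Cpa3 encodes carboxypeptidase A3, a granule protease of mast cells that basophils also express. It was measured at 17.6 and 20.5 CPM in the controls and at 22.7 and 19.9 CPM with EGCG, with overlap and a log2 fold change of 0.16 ± 0.12 (SE). Mcpt8, Prss34 and Cpa3 thus had no shift toward lower values in both EGCG libraries.

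Fcer1a and Ms4a2 encode the alpha chain, which binds IgE, and the beta chain, which amplifies the signal, of the high-affinity IgE receptor. Fcer1a was measured at 7.61 and 10.6 CPM in the controls and at 12.4 and 11.2 CPM with EGCG. Both EGCG libraries were above both control libraries and control replicate 1 was the lowest, and the log2 fold change was 0.37 ± 0.17 (SE), beside a log2 difference of 0.47 between the control libraries. Ms4a2 was measured at 22.2 and 24.9 CPM in the controls and at 26.0 and 18.9 CPM with EGCG. The EGCG libraries were the highest and the lowest of the 4, and the log2 fold change was -0.06 ± 0.14 (SE). The level of Fcer1a relative to Ms4a2 was 0.343 and 0.426 in the controls and 0.475 and 0.592 with EGCG, higher in both EGCG libraries, and rests on 139 to 224 counts of Fcer1a per library.

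Gata2 encodes a transcription factor of basophils, mast cells and blood progenitors. Its level was 46.2 and 49.5 CPM in the controls and 42.2 and 44.6 CPM with EGCG, and it was the only basophil and mast cell member with lower values in both EGCG libraries. The log2 fold change was -0.14 ± 0.09 (SE).

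The 6 basophil and mast cell members summed to 287 and 318 CPM in the controls and to 306 and 299 CPM with EGCG. Both EGCG sums lay between the control sums, and the ratio of the means was 0.999. Within the control group, all 6 were higher in replicate 2 than in replicate 1, against 1 of the 4 eosinophil members (Il5ra), and the sums of the 2 lineages differed in opposite directions between the control libraries. Prg2 was 10.9 and 7.96 times Mcpt8 in the control libraries and 8.80 and 7.07 times in the EGCG libraries, and the 2 groups overlapped in that ratio.

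**Figure D2:**
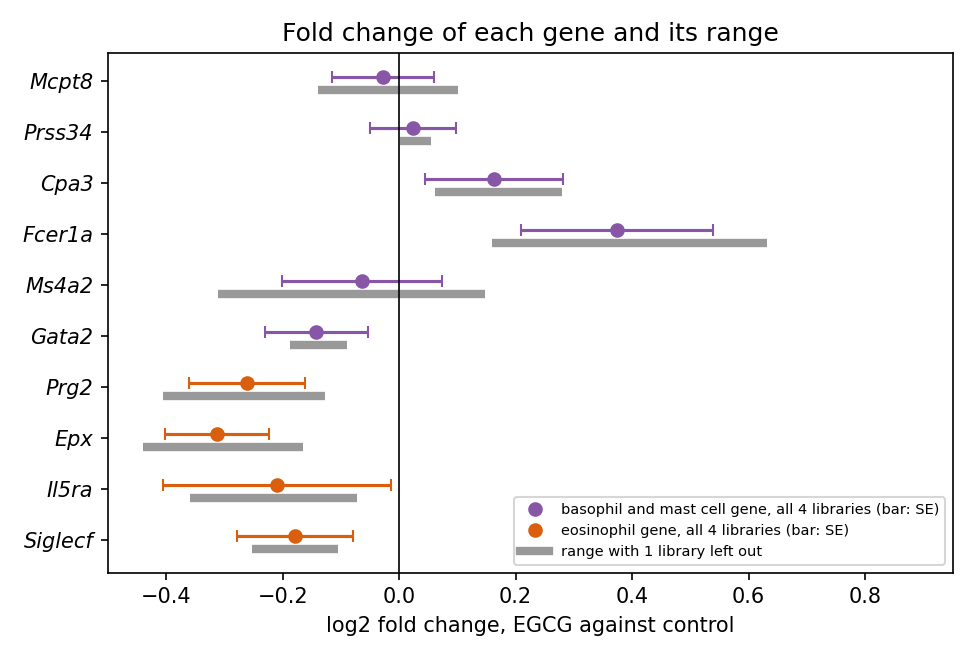
Fold change of each member on the log2 scale, EGCG against control; points and bars are the edgeR estimate ± SE from all 4 libraries, and gray bars run from the lowest to the highest estimate with 1 library left out. The 4 eosinophil genes (orange) and Gata2 stay below 0 throughout, and Mcpt8 and Ms4a2 cross 0 when a library is left out. In the eosinophil genes and Gata2 the groups did not overlap, so leaving out 1 library could hardly change their sign.

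Over the 10 members, the median log2 fold change was -0.10, between -0.31 (Epx) and 0.37 (Fcer1a), beside a median of 0.0031 over all tested genes. It was -0.24 over the eosinophil members. Of the members, 7 had an estimate below 0 and 3 above it, and 49.4% of all tested genes had one below 0. In 5 members (Gata2, Prg2, Epx, Il5ra and Siglecf) both EGCG libraries were below both control libraries, which was so in 21.2% of all tested genes. In 1 member (Fcer1a) both were above, as in 21.5% of all tested genes, and 4 overlapped. In 7 of the 10 the size of the fold change was below the larger of the 2 differences between replicates. With edgeR, 0 of the 10 members were called at an adjusted p under 0.05 (0 with robust estimation and 0 with DESeq2), where 0.136% of all tested genes were called lower and 0.0136% higher, and 3 had an unadjusted p under 0.05 (2 lower and 1 higher, beside 7.02% and 5.22% of all tested genes). Since the members were chosen on this contrast, nothing is read from these counts.

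Leaving out single libraries shifted the estimates by lineage. Without control replicate 1, in which 3 of the 4 eosinophil members (all but Il5ra) were highest, the median of the eosinophil members was -0.16, and without EGCG replicate 2, in which they were lowest, it was -0.12, against -0.24 with all libraries. Without control replicate 2 it was -0.29 and without EGCG replicate 1 it was -0.35. Prg2 moved from -0.26 to -0.13 without EGCG replicate 2 and to -0.15 without control replicate 1, and Epx to -0.17 without control replicate 1. Il5ra was at -0.07 and Siglecf at -0.11 without EGCG replicate 2. The median of the basophil and mast cell members lay between -0.07, without control replicate 1, and 0.09, without EGCG replicate 2. Fcer1a was at 0.16 without control replicate 1 and at 0.63 without control replicate 2. In all, 5 members were lower in each of these fits, 3 were higher in each (Prss34, Cpa3 and Fcer1a), and 2 changed sign (Mcpt8 and Ms4a2). In those 5 and in Fcer1a the groups did not overlap. Leaving out 1 library could therefore hardly change their sign, and a constant sign adds no support. Prss34, whose values were nearly equal in all libraries, also changed sign with the processing, to -0.011 with total counts only and to -0.011 with the length correction.

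**Figure D3:**
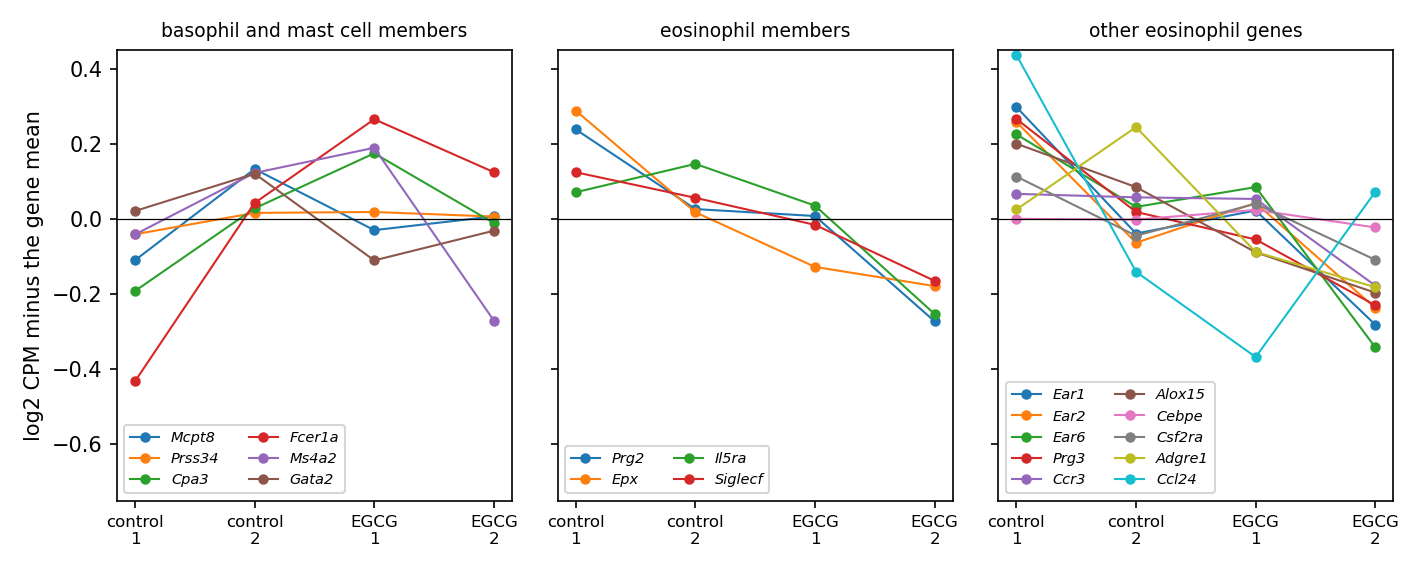
Level of each gene in the 4 libraries on the log2 CPM scale, minus the mean of the gene; the panels hold the basophil and mast cell members, the eosinophil members and the 10 other tested eosinophil genes, and lines join the values of a gene across libraries that have no order within a group. Control replicate 1 is highest and EGCG replicate 2 lowest for 3 of the 4 eosinophil members and 7 of the 10 other eosinophil genes, and for 0 of the 6 basophil and mast cell members (4 of 25 other basophil and mast cell genes, which are not drawn). This order was picked after the values were seen, and 11.6% of all tested genes have it.

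Per kilobase of exonic length, which allows genes to be compared, Prg2 stood first at 962 ± 99.95 CPM per kb in the control group (SD, n = 2). It was followed by Prss34 (95.4 ± 2.64 CPM per kb), Mcpt8 (86.7 ± 10.3 CPM per kb) and Epx (49.97 ± 6.62 CPM per kb). Prss34 and Mcpt8 overlapped over the 4 libraries. Cpa3 came next at 12.5 ± 1.35 CPM per kb, above Siglecf at 11.2 ± 0.376 CPM per kb. Neighbors from Siglecf through Fcer1a and Gata2 to Ms4a2 (8.36 ± 0.670 CPM per kb) overlapped, and Il5ra was last at 1.51 ± 0.0559 CPM per kb.

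The genes whose library pattern was most like the median profile of the members were Tinf2, Lims1, Crispld2, Ptpn1 and Pgap3. They had root-mean-square distances of 0.0137 to 0.0155 on the log2 scale over the 4 libraries, among 13117 genes with a mean of at least 1 CPM. The distances of the members themselves ran from 0.0571 (Prss34) to 0.270 (Fcer1a). The share of those genes that were nearer to the profile than the member was 7.45% for Prss34, 17.1% for Siglecf, 19.6% for Gata2, 23.5% for Mcpt8, 33.1% for Il5ra, 51.3% for Ms4a2, 51.5% for Cpa3, 61.8% for Prg2, 68.5% for Epx and 87.3% for Fcer1a.

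Other genes of these lineages were taken from fixed lists, which were drawn up with earlier results of these data known. They are therefore not independent support for the members. Of 12 other eosinophil genes, 10 were tested, 9 had an estimate below 0 and 1 above, and their median log2 fold change was -0.25. For this and the following lists, the share of all tested genes with an estimate below 0 was 49.4%. With edgeR 0 were called (0 with DESeq2), and 4 had an unadjusted p under 0.05 and were lower, beside 7.02% of all tested genes. Prg3, which encodes a homolog of major basic protein, was measured at 28.0 and 23.6 CPM in the controls and at 22.5 and 19.9 CPM with EGCG (log2 fold change -0.29 ± 0.12 SE, edgeR adjusted p = 0.344). Alox15, a lipoxygenase of eosinophils and macrophages, was at 62.2 and 57.4 CPM against 50.9 and 47.3 CPM (-0.29 ± 0.09 SE, edgeR adjusted p = 0.223). Ccr3, the eotaxin receptor, was at 13.9 and 13.8 CPM against 13.7 and 11.7 CPM (-0.12 ± 0.13 SE, edgeR adjusted p = 0.772). These genes were lower in both EGCG libraries, though for Ccr3 only EGCG replicate 2 stood apart. Without that library the log2 fold change of Ccr3 was -0.007, and without EGCG replicate 1 it was -0.24. That of Prg3 was -0.15 without control replicate 1.

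The eosinophil-associated ribonucleases Ear1, Ear2 and Ear6 had log2 fold changes of -0.26, -0.20 and -0.24 (edgeR adjusted p = 0.382, 0.506 and 0.412), with groups that overlapped. Ear2 was measured at 113.5 and 90.8 CPM in the controls and at 97.7 and 80.5 CPM with EGCG. Leaving out control replicate 1 brought the log2 fold change of Ear2 to -0.022 and leaving out EGCG replicate 2 to -0.063, against -0.35 and -0.34 when control replicate 2 or EGCG replicate 1 was left out. Control replicate 2 was below EGCG replicate 1, and the genes of this family are close copies, so their counts could be split between them. Control replicate 1 was the highest library and EGCG replicate 2 the lowest in 3 of the 4 eosinophil members and in 7 of the 10 other eosinophil genes (Ear1, Ear2, Ear6, Prg3, Ccr3, Alox15 and Csf2ra). That order, which was picked after the values were seen, was found in 0 of the 6 basophil and mast cell members, in 4 of the 25 other tested basophil and mast cell genes (Cd200r3, Cyp11a1, Il18rap and Ltc4s) and in 11.6% of all tested genes. The Ear genes, as close copies, may not be separate readings of it, and Csf2ra is also among the cytokine receptors listed below. Cebpe, a factor of granulocyte maturation, was level at 145.1, 144.9, 147.5 and 142.8 CPM in control 1, control 2, EGCG 1 and EGCG 2. Il5 itself was at 0 counts in all 4 libraries, which allows up to 3 counts in each.

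**Figure D4:**
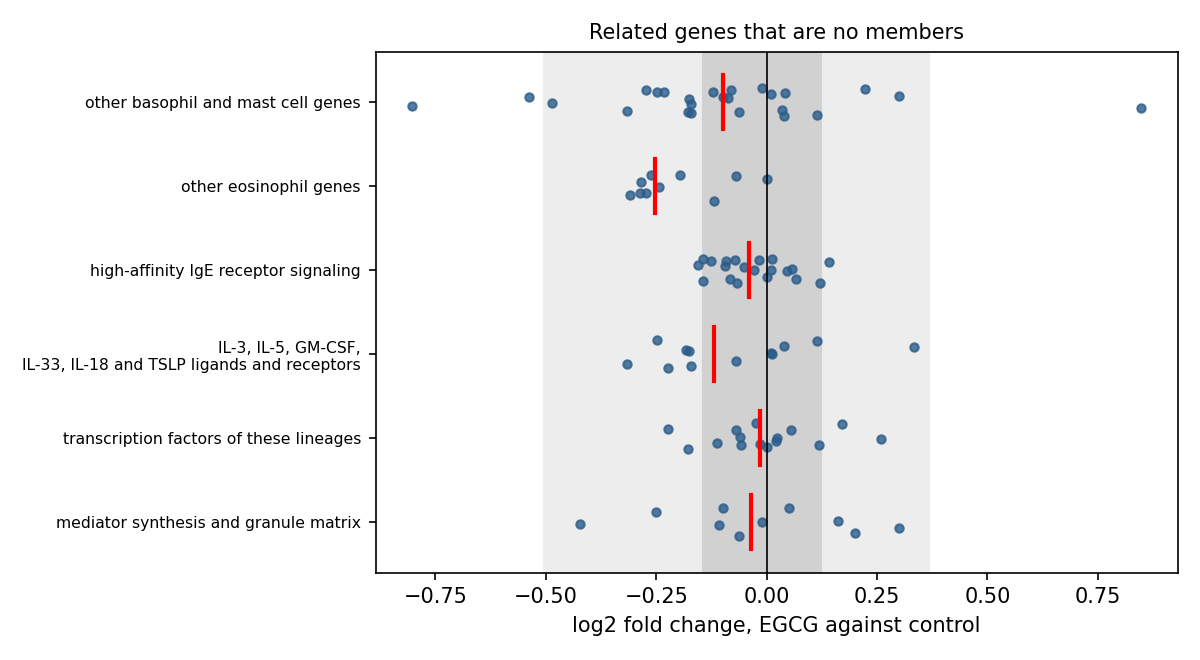
Fold change on the log2 scale, EGCG against control, of the tested genes of 6 fixed lists; each point is a gene, red lines are list medians, the dark band holds all tested genes from the 25th to the 75th percentile and the pale band runs from the 5th to the 95th percentile. The other eosinophil genes have a median of -0.25, and the high-affinity IgE receptor signaling genes spread around -0.04.

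Of 33 other basophil and mast cell genes, 25 were tested, 17 had an estimate below 0 and 8 above, with a median log2 fold change of -0.10. With edgeR 0 were called (1 with DESeq2), and an unadjusted p under 0.05 was reached by 6 with lower and 2 with higher values, beside 7.02% and 5.22% of all tested genes. Hdc, the enzyme that makes histamine, was at 241 and 267 CPM in the controls and 239 and 265 CPM with EGCG. Its values repeated by replicate number and did not separate the groups (-0.01 ± 0.08 SE, edgeR adjusted p = 0.977). Cd200r3, an activating receptor of basophils, had a log2 fold change of -0.09 ± 0.13 (SE), with overlap. The cytokine genes Il4 and Il13 were low, at 40 to 65 counts and 8 to 30 counts per library, and overlapped. Csf1, a growth factor of macrophages, was at 583 and 645 CPM against 497 and 549 CPM (-0.23 ± 0.08 SE, edgeR adjusted p = 0.284). Kit, the stem cell factor receptor of mast cells, was at 9.64 and 7.89 CPM against 7.34 and 8.79 CPM.

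The tissue mast cell proteases of the list had few counts. Tpsab1 and Cma1 passed the filter with 15 to 40 counts per library each. Mcpt1 had 2 to 5 counts per library, Mcpt4 had 6 to 8, Tpsb2 had 3 to 9, and Mrgprb2, a receptor of connective tissue mast cells, had 0 in every library. The basophil proteases Mcpt8 and Prss34 had 1447 to 1676 and 2084 to 2155 counts per library. The labels name the cells as sorted MDSCs, and these libraries held RNA of basophil and eosinophil granule genes in both groups.

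Receptors for the cytokines that sustain these cells included Csf2rb, the common beta chain of the IL-3, IL-5 and GM-CSF receptors. Csf2rb was measured at 812 and 788 CPM in the controls and at 624 and 660 CPM with EGCG, so that both EGCG libraries were well below both controls. Its log2 fold change was -0.32 ± 0.08 (SE) with an edgeR adjusted p of 0.121, while DESeq2 gave an adjusted p of 0.0177. Csf2rb2, its near copy, was at 299 and 271 CPM against 236 and 243 CPM (-0.25 ± 0.08 SE, edgeR adjusted p = 0.228), and reads could be split between these copies. Of the alpha chains that pair with Csf2rb, Il5ra (described above) was lower in both EGCG libraries, and Il3ra and Csf2ra overlapped between the groups. Il3ra had a log2 fold change of 0.01 ± 0.13 (SE), and Csf2ra one of -0.07 ± 0.08 (SE). Il1rl1, the IL-33 receptor, had one of -0.17 ± 0.12 (SE), which became -0.0085 when control replicate 2 was left out and -0.31 when control replicate 1 was. Crlf2, the TSLP receptor, had one of 0.11 ± 0.08 (SE). Of the 17 ligands and receptors, 12 were tested, 7 were below 0 and 5 above, the median was -0.12, and edgeR called 0 (DESeq2 called 1, Csf2rb), and an unadjusted p under 0.05 was reached by 4 lower genes and 1 higher gene (7.02% and 5.22% of all tested genes).

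All 20 genes of high-affinity IgE receptor signaling were tested. Of these, 12 had an estimate below 0 and 8 above, from -0.16 to 0.14 with a median of -0.04, and 0 were called with edgeR or DESeq2 or had an unadjusted p under 0.05. Fcer1g, the gamma chain shared with other Fc receptors, was at 636 and 742 CPM in the controls and at 792 and 642 CPM with EGCG. The groups overlapped (0.06 ± 0.10 SE, edgeR adjusted p = 0.872). The kinases Lyn and Syk, which act first after the receptor is crosslinked, had log2 fold changes of 0.05 ± 0.08 and -0.07 ± 0.08 (SE). These signaling genes are used by many myeloid cells.

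Of 15 transcription factors of these lineages, 8 were below 0 and 7 above, with a median of -0.02, 0 calls with edgeR or DESeq2, and an unadjusted p under 0.05 in 0 lower genes and 1 higher gene (7.02% and 5.22% of all tested genes). Gata1 was at 3.07 and 4.59 CPM in the controls and at 3.81 and 4.14 CPM with EGCG, and Runx1 had a log2 fold change of -0.11 ± 0.09 (SE). Of 11 genes of mediator synthesis and granule matrix, 10 were tested, 6 were below 0 and 4 above, the median was -0.04, and edgeR called 0, and an unadjusted p under 0.05 was found in 1 lower gene and 1 higher gene (7.02% and 5.22% of all tested genes). Alox5, which starts leukotriene synthesis, was at 439 and 442 CPM against 454 and 459 CPM (0.05 ± 0.07 SE), and Ltc4s, which makes leukotriene C4, was at 3.18 and 2.41 CPM against 3.14 and 2.07 CPM. DESeq2 called 1 gene of that list, Ptgs1 (cyclooxygenase 1), which was at 55.4 and 61.7 CPM in the controls and at 44.2 and 43.2 CPM with EGCG (-0.42 ± 0.09 SE, edgeR adjusted p = 0.0769).

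Markers of other cells also differed between libraries. The 12 neutrophil markers summed to 58910 and 70310 CPM in the controls and to 79290 and 70070 CPM with EGCG. Of these, 8 were above 0 in log2 fold change, 0 were called with edgeR or DESeq2, and 1 was higher at an unadjusted p under 0.05. The neutrophil sum was lowest in control replicate 1, the library in which the eosinophil sum was highest. The opposition did not extend to all libraries. The neutrophil sum was highest in EGCG replicate 1, whereas the eosinophil sum was lowest in EGCG replicate 2 (746 CPM). Most of the neutrophil sum was S100a8 and S100a9 (14460 and 22450 CPM in control replicate 1). All 8 splenic macrophage markers had an estimate below 0, with sums of 724 and 715 CPM against 563 and 646 CPM, 0 called with edgeR, 1 called with DESeq2 (Cd5l) and 4 lower at an unadjusted p under 0.05. An estimate below 0 was also found in 7 of 8 monocyte markers, with sums of 1659 and 1446 CPM against 1252 and 1308 CPM and 3 lower at an unadjusted p under 0.05. Vcan, a monocyte marker, was called lower (log2 fold change -0.50 ± 0.08 SE, edgeR adjusted p = 0.0245). The 7 tested endothelial markers were all below 0 (128 and 141 CPM against 104 and 109 CPM, 0 called with edgeR or DESeq2 and 6 with an unadjusted p under 0.05, beside 7.02% of all tested genes with lower values). No defining marker of the macrophage, monocyte or neutrophil lists was at 0, and the part of these other cells in the values of the eosinophil genes was not tested. Adgre1 (-0.27 ± 0.08 SE, edgeR adjusted p = 0.228) is in the eosinophil and the macrophage list, and Ccl24 and Alox15 are also made by macrophages.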

How the data were processed

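RNA of 4 libraries was measured by RNA-seq. Per the submitters' processing notes and the study's methods, the authors aligned reads to GRCm38 with STAR 2.6.0c, counted them per Ensembl gene with featureCounts 1.6.2 without regard to strand, and deposited raw counts, not normalized (0 columns of other samples, 0 unnamed lines). Genes were filtered with filterByExpr (minimum count 10), scaled by TMM, and compared with edgeR 4.0.16 (quasi-likelihood test, legacy form) in R 4.3.3, with Benjamini-Hochberg adjustment over 14682 genes and a threshold of 0.05. The test was tested on simulated data. CPM values use TMM-scaled library sizes. Intervals of counts are exact Poisson 95% intervals and cover counting error only. Exonic lengths came from GENCODE on GRCm38, and promoters from a RefSeq table on GRCm38.p6, in which 9 of the 10 members were matched (all but Prg2).

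The members and gene lists were chosen with earlier results of these data known. Named genes were the 10 members, genes fixed for their role in these cells, listed genes past the threshold and the 5 nearest patterns. Ear1, Ear6, Alox15, Adgre1, Cd5l, Ccl24, Ptgs1, Cma1, Tpsab1, Cyp11a1, Il18rap, Il5, the mast cell proteases and Mrgprb2 were named after their values were seen. No exonic base of a member overlapped another gene, and at most 4.30% of the 31-base words of a member (Il5ra) occurred in other genes. Replicates differed beyond sampling noise in both groups (mean chi-square per gene 6.79 and 6.57), so each library counted as 1 sample. Alternatives were other filters and scalings, DESeq2 1.42.0, robust estimation, a length correction (loess, span 0.4), a replicate block and leaving out each library.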

Additional observations from a re-analysis of the deposited data

How the results depend on the processing

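Over the fits without 1 library, the median log2 fold change of the members lay between -0.18 and -0.034. In 130 alternatives of single members the value moved by more than the replicate spread in 8. That spread comes from the same differences between replicates that set how far leaving out 1 library moves an estimate. Few larger moves could therefore arise, and the number says little about robustness. Prss34 (0.02 with TMM) changed sign to -0.011 with total counts only and with the length correction, while Mcpt8 and Ms4a2 changed sign without single libraries. Genes called lower numbered 20 with all libraries, 0 without the filter on low counts, 9 with upper-quartile scaling, 135 with total counts only, 50 with DESeq2, 49 with robust estimation and 3 with the length correction. Genes called higher numbered 2, and 0 without the filter, 1 at a minimum of 1 CPM, 16 with total counts only, 14 with DESeq2 and 14 with robust estimation. Without single libraries the numbers ran from 72 to 235 lower and from 5 to 119 higher, and the cause was not tested. With the replicate block 24 genes were called lower and 6 higher. The labels do not say that equal numbers share an origin, and the deviations of same-numbered libraries correlated at 0.0336 across genes. Of the other basophil and mast cell genes, 1 (Csf2rb) was called lower with total counts only and with DESeq2, and 0 to 1 without single libraries. Of the other eosinophil genes, 1 to 2 were called lower without single libraries (Adgre1, Ccl24, Ear1 or Ear6), against 0 with all 4 libraries. Each of these fits leaves 1 group with 1 library, which is assumed to vary like the 2 libraries of the other group.

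Of 24 named genes outside the members, 14 changed sign under some alternative, none of them called with all libraries. The length correction gave 0.040 for Syk, 0.051 for Hdc, -0.033 for Cebpe and 0.024 for Runx1. Total counts only gave -0.028 for Il3ra and -0.034 for Cebpe, and a minimum of 1 CPM gave -0.0008 for Cebpe. Without single libraries the log2 fold change ran from -0.10 to 0.20 for Fcer1g, -0.0018 to 0.095 for Lyn, -0.12 to 0.16 for Il3ra, -0.14 to 0.017 for Csf2ra, -0.49 to 0.24 for Il4, -1.57 to 0.13 for Il13, -0.085 to 0.069 for Hdc, -0.22 to 0.062 for Cd200r3, -0.020 to 0.026 for Cebpe, -0.20 to 0.38 for Gata1, -0.26 to 0.035 for Kit and -0.43 to 0.17 for Ltc4s. Without changing sign it ran from -0.35 to -0.022 for Ear2, -0.24 to -0.007 for Ccr3, -0.31 to -0.0085 for Il1rl1 and -0.91 to -0.24 for Itga2. The cause was not tested. Depth limits the member Il5ra, with at most 99 counts per library, and the named genes with fewer, such as Il4, Il13, Ltc4s and Itga2.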

Other observations

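A few low-count genes of the basophil and mast cell list differed more than the members and in both directions. Tpsab1, a mast cell tryptase, had 32 and 40 counts in the controls and 15 and 26 with EGCG (log2 fold change -0.80 ± 0.36 SE, edgeR adjusted p = 0.393), and it has a near copy in Tpsb2. Cma1, a chymase, had 15 and 25 counts in the controls and 40 and 32 with EGCG (0.85 ± 0.35 SE, edgeR adjusted p = 0.362). Itga2, the DX5 integrin chain of basophils and NK cells, was at 3.01 and 3.86 CPM against 1.82 and 2.91 CPM (-0.54 ± 0.28 SE, edgeR adjusted p = 0.466), and its log2 fold change ran from -0.24 without EGCG replicate 1 to -0.91 without EGCG replicate 2. The groups were apart in these 3 genes, and 0 of them passed the threshold. Tpsab1 and Cma1 were named after their values were seen. Among the 25 tested genes of the list, the groups were apart in 8 with lower and 3 with higher values. Over all tested genes this was so in 21.2% with lower and 21.5% with higher values.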
